A study of Mus musculus with 4 samples.

Results

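Dao, Ddo and Srr encode the enzymes that oxidise or make D-amino acids in mouse tissue. They are 3 genes of the 37325 gene names on the array, and were taken by gene name over all non-control probes, which gave 10 probes in all (2 for Dao, 3 for Ddo and 5 for Srr). RNA was measured in mechanically scraped epithelium of mouse small intestine on 1-colour (Cy3) Agilent arrays. The groups were jejunum of Tcrbd-/-, DAOG181R/G181R mice, jejunum of Tcrbd-/-, DAOwt/wt mice, ileum of Tcrbd-/-, DAOG181R/G181R mice and ileum of Tcrbd-/-, DAOwt/wt mice. All mice were 9 weeks old and on the C57BL/6J background. Every animal, wild-type DAO mice included, was Tcrbd-/-, that is, without the beta and delta chain genes of the T cell receptor, so the tissue came from a host without T cells that bear a receptor. The G181R groups carried the G181R form of Dao on both copies, an allele known from earlier work to abolish most of the enzyme's activity. Each group was 1 array of RNA pooled from 5 mice, labelled from 100 ng. No group had a replicate array, so differences are given without a p-value, and the spread between animals or pools is unknown.

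D-amino acid oxidase, the product of Dao, is a peroxisomal flavoenzyme that turns neutral D-amino acids such as D-alanine and D-serine into keto acids, ammonia and hydrogen peroxide. D-aspartate oxidase, the product of Ddo, does the same to the acidic D-aspartate and D-glutamate. Serine racemase, the product of Srr, needs pyridoxal phosphate and converts L-serine to D-serine, and it can also break serine down to pyruvate. In the small intestine D-amino acids come from bacterial cell walls and from food, and Dao is known to be made by the epithelium and released towards the lumen.

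The probe sequences are shown because the probes of Dao disagreed on the genotype difference and those of Srr on the regional one. They are given 5′ to 3′ as the array's files hold them, with positions in mm9 as in the same files. The lines marked "start" give the first 30 of 60 bases. No base is marked by capitals.
Dao A_55_P2108933, start: aggaggagcactccactggtcaacattatt
Dao A_52_P452747: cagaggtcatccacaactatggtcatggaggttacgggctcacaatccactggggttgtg
Ddo A_55_P2033997: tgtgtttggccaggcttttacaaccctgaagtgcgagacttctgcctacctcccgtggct
Srr A_55_P2047673, start: gagagtaagctagtagggaaactgttcacc
Srr A_52_P30920: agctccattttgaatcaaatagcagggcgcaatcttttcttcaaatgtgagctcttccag
Srr A_52_P172711, start: gggagagtagtcatcatatgacatataggc

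The probe A_55_P2108933 lies at chr5:114475410-114475469 on the plus strand and was the brighter one for Dao. The other Dao probe, A_52_P452747, has 60 bases that lie across 908 bases of the genome, at chr5:114473931-114474838, so its match is split by a gap. The files list the same 3 RefSeq transcripts for both Dao probes. Because G181R is a substitution of a single residue, the mRNA level cannot serve as a check of the genotype labels. Where the altered codon lies relative to the probes was not determined here.

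The arrays showed 34187 probes well above background in G181R jejunum and 32505 in wild-type jejunum, and 34080 in G181R ileum and 33543 in wild-type ileum. "Well above background" is the scanner software's flag for a spot. No spot was saturated, and all 4 arrays shared 1 slide and 1 day of scanning. Levels are log2 processed signal minus the 75th percentile of each array. The error beside a difference is the scanner software's own 1-sigma error, which holds a preset 10% term and covers neither mice nor labelling. The number of arrays limits the precision. Of the 10 probes, 7 were well above background on all 4 arrays, namely both for Dao and all 5 for Srr.

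**Figure D1:**
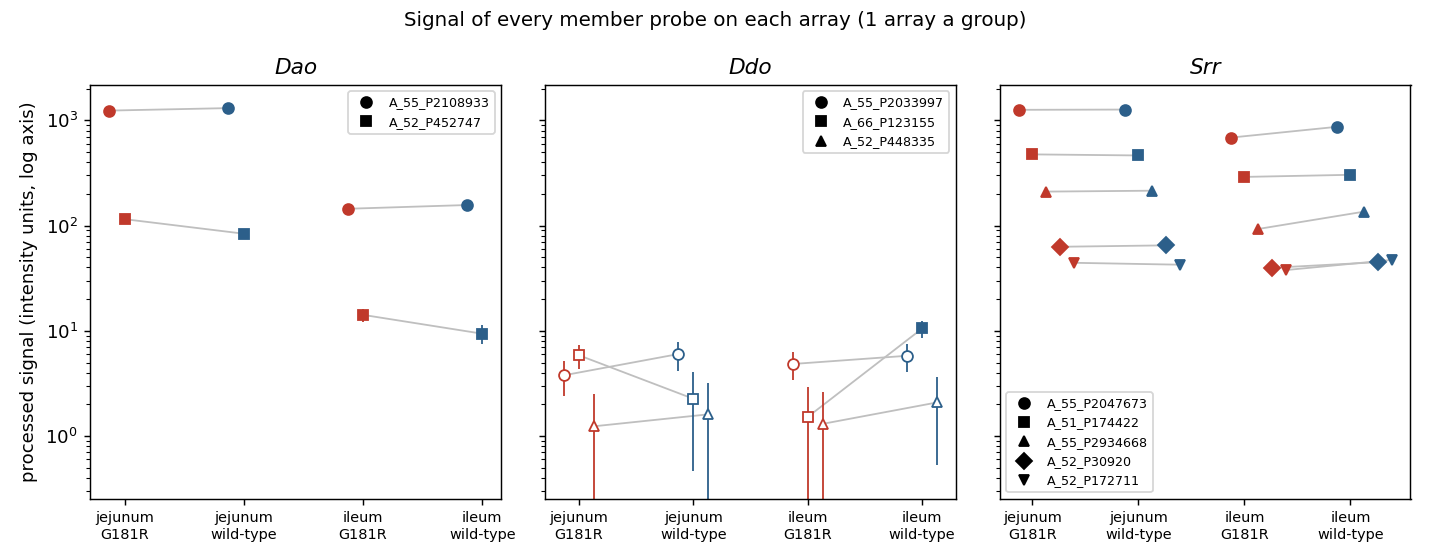
Processed signal (intensity units, log axis) of each Dao, Ddo and Srr probe on the 4 arrays, G181R in red and wild-type in blue. Bars are the scanner software's 1-sigma errors, cut off by the axis for the dimmest spots, and open symbols are spots not well above background. Both Dao probes drop by about the same step in ileum, whereas 4 of 5 Srr probes drop by less than that and the Ddo probes stay near background.

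Dao mRNA was present in all 4 pools, was nearly alike between genotypes at its brighter probe, and was much lower in ileum, at both probes and in both genotypes. At A_55_P2108933 the processed signal was 1239 in G181R jejunum and 1309 in wild-type jejunum. In ileum the same probe gave 145 in G181R mice and 157 in wild-type mice. Within each genotype the jejunum array was thus the higher one. On the log2 scale the level was 2.96 in G181R jejunum and 3.07 in wild-type jejunum, and -0.28 in G181R ileum and -0.24 in wild-type ileum. The order of the levels was wild-type jejunum, G181R jejunum, wild-type ileum and G181R ileum, and neighbours of the same region did not differ beyond their error.

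Whether G181R altered the amount of its own mRNA was read as G181R minus wild-type within each region. At the brighter probe the log2 difference was -0.11 ± 0.20 in jejunum and -0.04 ± 0.21 in ileum (scanner error). Replicate spots of probes of like brightness gave an SD of 0.04 for such a difference in jejunum and 0.08 in ileum. The difference in jejunum was thus larger than the spread of replicate spots, and neither difference was larger than the scanner error. The ileum value was 0.01 with median scaling. In jejunum 36.3% of measured genes differed no more than Dao, and in ileum 9.91%. None of the members that could be measured reached 2-fold in either region, where 1.51% of all measured genes did in jejunum and 5.21% in ileum.

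The dimmer Dao probe gave higher values in G181R mice in both regions. A_52_P452747 had a signal of 115 in G181R jejunum and 83.8 in wild-type jejunum. Its signal was 14.2 in G181R ileum and 9.39 in wild-type ileum, where the lowest signal well above background was 6.11 and 7.20 on those arrays. Its log2 differences were 0.43 ± 0.21 in jejunum and 0.67 ± 0.36 in ileum (scanner error), so both exceeded that error. With normexp background correction the ileum difference was 0.11 and that of jejunum 0.25.

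The distance between the 2 Dao probes on a single array cancels a difference in the amount of the whole transcript only where both signals scale with that amount. Whether they do was not tested, and the distance was examined after the values had been seen. The probes stood closer in G181R mice by 0.54 ± 0.29 in jejunum and by 0.71 ± 0.41 in ileum (scanner error). Between regions the distance moved by 0.08 ± 0.32 in G181R mice and by -0.10 ± 0.39 in wild-type mice, within the error. With normexp, which adds a fixed offset to every signal, the genotype shifts were 0.34 in jejunum and 0.12 in ileum. The regional shifts were then 1.33 in G181R mice and 1.55 in wild-type mice. The errors above belong to the signals without normexp, so whether the normexp shifts exceed their own error was not tested. Among 6632 genes with at least 2 measured probes, 1.91% showed a shift of at least 0.54 in both regions and of 1 sign. That cut-off is the smaller of the 2 Dao shifts, so these genes need not reach 0.71 in ileum. Among the 2117 of these whose dimmer probe was within 1 log2 unit of the brightness of A_52_P452747, it was 2.83%.

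The regional comparison asks how these enzymes differ along the small intestine. In ileum, Dao was 9.40-fold lower than in jejunum in G181R mice and 9.88-fold lower in wild-type mice, log2 differences of -3.23 ± 0.20 and -3.30 ± 0.20 (scanner error). At the dimmer probe the folds were 8.90 in G181R mice and 10.6 in wild-type mice. Both probes thus gave the same direction. The like size was lost with normexp background correction, which adds 50 to every signal: the brighter probe was then at -2.69 in G181R mice and -2.78 in wild-type mice, and the dimmer one at -1.37 and -1.23. Of all measured genes, 16% differed at least 2-fold between regions in G181R mice and 16.5% in wild-type mice, and 8.73% and 9.11% were at least 2-fold lower in ileum, as Dao was. The share that was lower than Dao was 0.778% in G181R mice and 0.603% in wild-type mice. The difference in genotype effect between the regions, ileum minus jejunum, was 0.07 ± 0.29 at the brighter probe and 0.25 ± 0.42 at the dimmer one, both within the error. The comparisons share arrays, since each array enters 1 genotype and 1 regional comparison, so their values are not independent. With RNA from bulk tissue, fewer Dao-bearing cells and less Dao RNA per cell cannot be told apart.

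**Figure D2:**
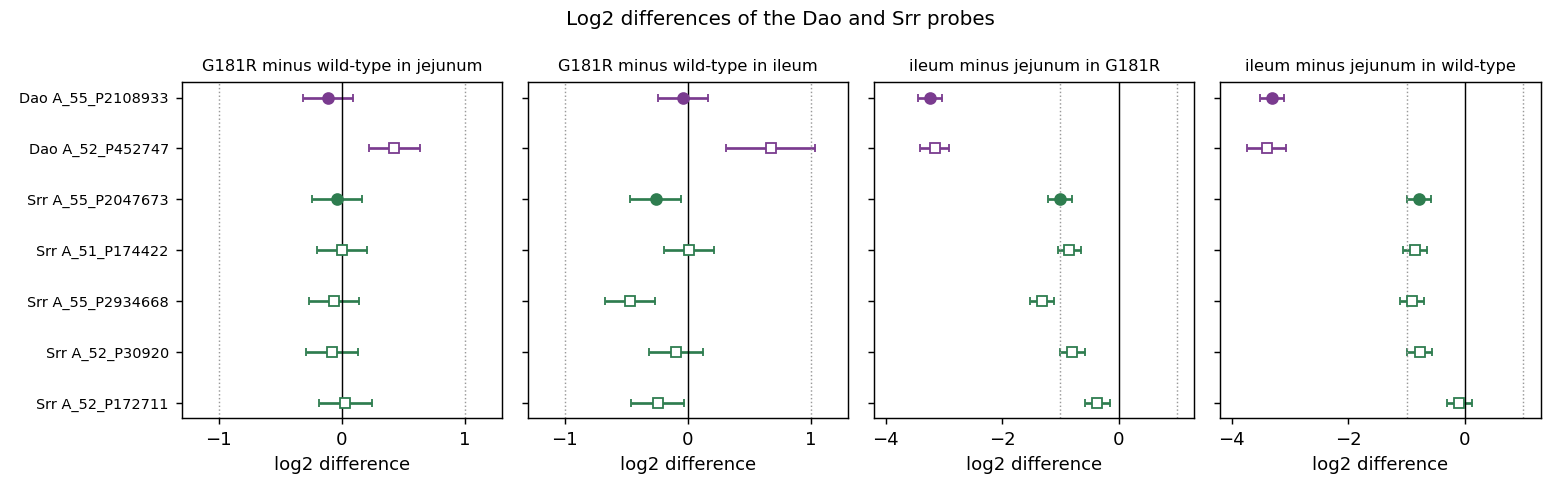
Log2 difference of each Dao (purple) and Srr (green) probe in the 4 comparisons, with bars for the scanner software's 1-sigma error; filled circles are the brightest probe of a gene, open squares the others, and dotted lines mark 2-fold. The 2 Dao probes part in both genotype comparisons and lie close together in both regional ones, and the Srr probe A_52_P172711 lies nearest to 0 in both regional comparisons.

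Ddo, the oxidase of acidic D-amino acids, was at or near background. Its brightest probe, A_55_P2033997 at chr10:40357259-40357318, had signals of 3.78 in G181R jejunum and 6.02 in wild-type jejunum, and of 4.84 in G181R ileum and 5.80 in wild-type ileum. None of the 4 was well above background. A_52_P448335, at chr10:40394596-40394655, was not well above background on any array either. A_66_P123155, at chr10:40369646-40369705, passed on the wild-type ileum array alone. Its signals were 5.87 in G181R jejunum, 2.26 in wild-type jejunum, 1.52 in G181R ileum and 10.5 in wild-type ileum. At that probe alone, the signal was at least 1.63-fold lower in G181R than in wild-type ileum, and at least 1.21-fold higher in wild-type ileum than in wild-type jejunum. These bounds rest on 1 dim spot that passed on 1 array, support no difference of the gene, and were set against the lowest signal well above background on the dim array or the probe's own signal, whichever was higher. No genotype or regional difference of Ddo could be measured at its other probes.

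All 5 probes that carry the Srr name were well above background on all arrays. A_55_P2934668 and A_52_P172711 among them are tied to cDNA clones and to no RefSeq transcript. The brightest of the 5, A_55_P2047673 at chr11:74720301-74720360 on the minus strand, had signals of 1260 in G181R jejunum and 1267 in wild-type jejunum. In ileum they were 686 in G181R mice and 868 in wild-type mice. Within each genotype the ileum array was below the jejunum array, and the G181R ileum array was the lowest of all. The order of the levels was wild-type jejunum (3.02), G181R jejunum (2.98), wild-type ileum (2.23) and G181R ileum (1.97), of which the jejunum pair did not differ beyond the error.

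Between genotypes, the brightest Srr probe differed by -0.04 ± 0.20 in jejunum and by -0.26 ± 0.20 in ileum (scanner error). In jejunum 14.3% of measured genes differed no more than this probe, and in ileum 54.9%. Over the 5 probes the jejunum difference ran between -0.08 and 0.03 with a median of -0.04, and 3 of 5 were lower in G181R mice. In ileum it ran between -0.47 and 0.01 with a median of -0.24, and 4 of 5 were lower. The lowest, A_55_P2934668 at chr11:74717550-74717609, differed by -0.47 ± 0.21, with signals of 92.9 in G181R ileum and 136 in wild-type ileum. The probe A_51_P174422 at chr11:74722084-74722143 differed by 0.01 ± 0.20, so the Srr probes did not give 1 value for the ileum. The 5 probes share a gene and an RNA pool and are no replicates of a genotype. The difference between regions in the genotype effect was -0.22 ± 0.29 at the brightest probe.

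Between regions, 4 of the 5 Srr probes were lower in ileum by more than their error in both genotypes, and A_52_P172711 was so in G181R mice alone. The brightest was 2.01-fold lower in ileum in G181R mice and 1.73-fold lower in wild-type mice, log2 differences of -1.01 ± 0.20 and -0.79 ± 0.20. The 2-fold call in G181R mice was kept with the deposited table (-1.01) and lost with normexp and the 3 other scalings, at -0.99 to -0.88, and in the mean of the probes, at -0.87. Over the 5 probes the median was -0.84 in G181R mice and -0.79 in wild-type mice, with 2 and 0 probes at least 2-fold lower. A_52_P172711 at chr11:74732327-74732386 lay nearest to 0. Both this probe and A_55_P2934668, which had the largest regional difference of the 5, are tied in the files to cDNA clones and to no RefSeq transcript. Its signals were 37.8 in G181R ileum and 44.3 in G181R jejunum, against 47.2 in wild-type ileum and 42.5 in wild-type jejunum, and after scaling its log2 differences between regions were -0.36 ± 0.21 in G181R mice and -0.09 ± 0.22 in wild-type mice. The unscaled wild-type signal was thus higher in ileum, and the scaled difference was within its error. The other 4 lay between -1.31 and -0.80 in G181R mice and between -0.90 and -0.78 in wild-type mice.

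**Figure D3:**
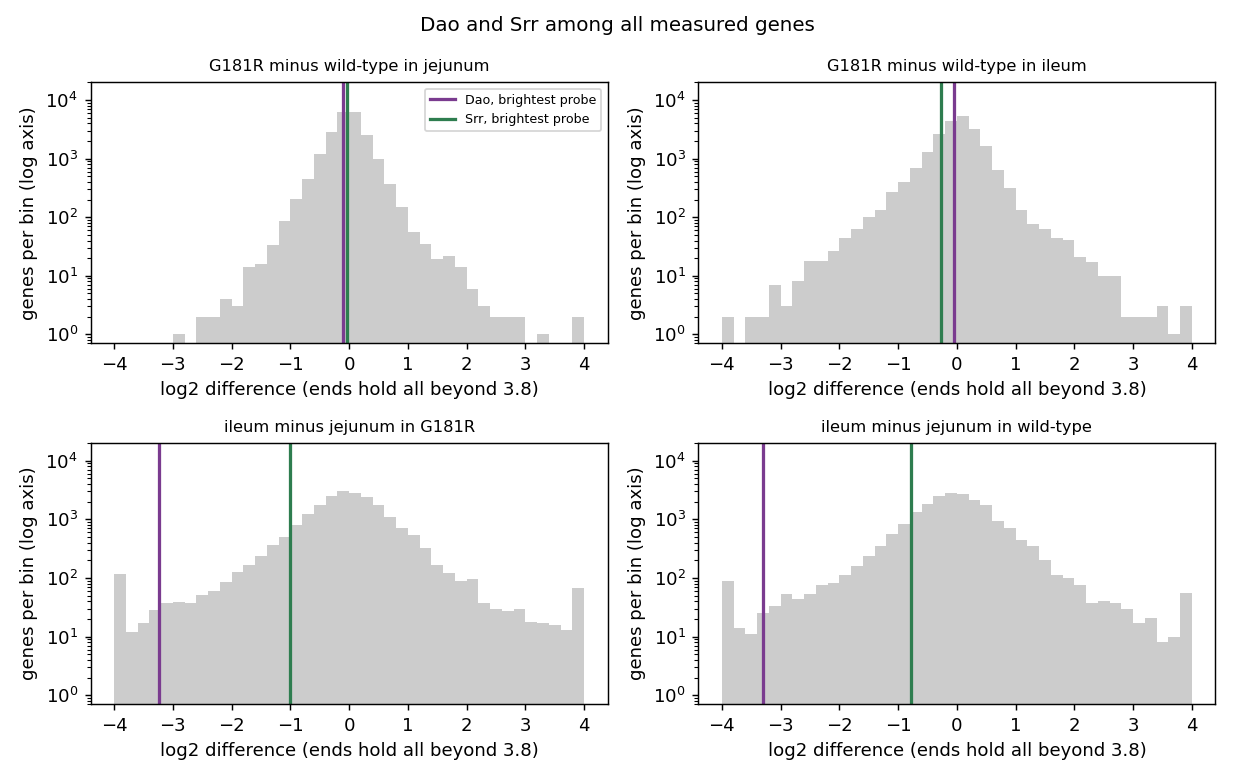
Number of genes per 0.2 log2 units of difference (log axis) in the 4 comparisons, over genes measured on both arrays at their brightest probe, with Dao (purple) and Srr (green) marked; the end bins hold all genes beyond. Both lie in the middle of the genotype comparisons, Dao in the low tail of the regional comparisons and Srr between the middle and that tail.

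Regional markers differed in the direction of the tissue labels. The 3 jejunal markers (Gata4, Lct and Fabp1) had a median of -5.82 in ileum minus jejunum in G181R mice and -6.07 in wild-type mice. The 3 ileal markers (Fabp6, Slc10a2 and Slc51b) were all at least 2-fold higher in ileum, Fabp6 by 13.1 log2 units in G181R mice and by 13.7 in wild-type mice. Of all measured genes, 1578 of 21605 were at least 2-fold higher in ileum in G181R mice and 1549 of 20879 in wild-type mice. Between genotypes, Gata4 was higher in G181R ileum by 1.17 (signals 44.6 and 20.9) and Lct by 0.64, while Fabp1 was at -0.64. All 3 ileal markers were higher in G181R jejunum (median 0.57), Fabp6 at signals of only 17.0 and 11.2. In their own regions the genotype medians were -0.08 for the jejunal and -0.06 for the ileal markers. Their bearing on the genotype differences of Dao and Srr was not tested. Enterocyte markers were all well above background on all arrays, and 5 of 8 were at least 2-fold lower in ileum in both genotypes. Of all measured genes, 8.73% were so in G181R mice and 9.11% in wild-type mice. The 8 enterocyte markers had medians of -2.35 in G181R mice and -1.75 in wild-type mice. Their summed level was 443 in G181R ileum and 2175 in G181R jejunum, against 534 in wild-type ileum and 2529 in wild-type jejunum. That list holds Lct and Fabp1, markers of the jejunal list as well. The 5 lower markers were Lct, Fabp1, Apoa4, Alpi and Sis, while Epcam was higher in ileum, by 0.40 in G181R mice and 0.72 in wild-type mice, Cdh1 differed by 0.14 and 0.21, and Vil1 by -0.38 and -0.49. The part of these genes' cells in the regional differences of Dao and Srr was not tested.

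Markers of tissue beneath the epithelium also differed. Of 8 smooth muscle markers, all detected on every array, 7 were at least 2-fold lower in G181R than in wild-type ileum. Of all measured genes, 693 of 21608 were so. The summed level of the smooth muscle markers was 33.5 in G181R ileum and 89.7 in wild-type ileum, and 43.6 and 40.1 in jejunum. Of the B cell markers, 3 of 3 measured genes were lower in G181R jejunum (median -0.79), and 4 of 4 were higher in G181R ileum (median 0.72). Red cell markers were lower in G181R mice in both regions, with medians of -0.42 in jejunum and -0.72 in ileum. All 4 CD3 genes were well above background on all arrays, though all the mice lacked the receptor genes. The part of these cells in the Srr difference of the ileum was not tested.

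The other peroxisomal oxidases measured in both regions were lower in ileum, as Dao was, but Hao2 was higher. The list of other peroxisomal oxidases that release hydrogen peroxide had 5 of 7 genes measured, and all 5 were lower in ileum, with medians of -0.79 in G181R mice and -0.85 in wild-type mice, where the median of all measured genes was -0.03 and -0.05. Pipox, which oxidises pipecolate and sarcosine, was 5.87-fold lower in ileum in G181R mice and 4.49-fold lower in wild-type mice. Hao2, a hydroxyacid oxidase, ran the other way and was not well above background in jejunum, so it is not among those 5. It was at least 6.42-fold higher in ileum in G181R mice and at least 17.6-fold higher in wild-type mice. In the genotype comparison of the ileum Hao2 had signals of 41.0 in G181R mice and 153 in wild-type mice, 3.53-fold lower (log2 -1.82, and -1.06 with normexp). Between genotypes, 4 of the 5 measured oxidases in jejunum and 5 of 6 in ileum were lower in G181R mice, with medians of -0.10 and -0.18.

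Catalase, which breaks down the hydrogen peroxide that Dao makes, was lower in G181R mice in both regions. Cat had signals of 2611 in G181R jejunum and 3502 in wild-type jejunum, and of 534 in G181R ileum and 1331 in wild-type ileum. Its log2 difference between genotypes was -0.46 ± 0.20 in jejunum and -1.24 ± 0.20 in ileum, and between regions -2.42 in G181R mice and -1.64 in wild-type mice. Of the enterocyte markers, 6 of 8 were lower in G181R than in wild-type ileum (median -0.23). Sis was at -0.91, and Alpi had signals of 1468 in G181R and 3097 in wild-type ileum. Vil1 (-0.07) and Cdh1 (-0.05) were within their error, while Lct (0.64) and Apoa4 (0.57) were higher in G181R ileum. The part of these markers' cells in the Cat difference was not tested. The peroxisomal import factors Pex5, Pex7, Pex13 and Pex14 all differed by less than 2-fold in the 4 comparisons. Pex7 was at -0.01 ± 0.20 between regions in G181R mice, a value that was 0.05 with median scaling, and at -0.14 ± 0.20 in wild-type mice. The other 3 and Cat were lower in ileum by more than their error in both genotypes, and the list of 5 had medians of -0.52 in G181R mice and -0.45 in wild-type mice.

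Of the other enzymes of D-amino acids, Dglucy, which converts D-glutamate, was 5.62-fold lower in ileum in G181R mice and 6.12-fold lower in wild-type mice. Its signals were 903 in G181R ileum and 4633 in G181R jejunum, against 1224 in wild-type ileum and 6326 in wild-type jejunum. Dtd1 and Dtd2, which free tRNAs charged with a D-amino acid, went in opposite directions between regions. Dtd1 was higher in ileum by 0.62 in G181R mice and 0.64 in wild-type mice, and Dtd2 lower, at -0.62 and -0.74. Between genotypes Dtd1 differed by 0.43 in jejunum and 0.41 in ileum, and Dglucy by -0.48 and -0.36. Got1l1 was not well above background.

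Of the list of L-serine synthesis and breakdown, L-serine being the substrate of serine racemase, 6 of 7 genes were measured. Of these, 5 were higher in G181R mice in both regions by more than their error, and Sdsl differed by 0.01 ± 0.20 in jejunum and 0.24 ± 0.20 in ileum. The list had medians of 0.54 in jejunum and 0.59 in ileum. The median of all measured genes was -0.01 in jejunum and 0.03 in ileum. Psat1, a transaminase of serine synthesis, was highest at 1.47 in jejunum and 1.20 in ileum. In the mean of its probes Psat1 stood at 0.50 and 0.71, below 2-fold. Phgdh, which catalyses the first step, was at 1.04 in jejunum and 0.66 in ileum, and at 0.71 in jejunum with normexp. Shmt2, the mitochondrial enzyme that splits serine, was at 0.45 in jejunum and 1.02 in ileum, and in ileum at 0.86 with normexp. Between regions, Psat1 was higher in ileum by 1.70 in G181R mice and 1.98 in wild-type mice (0.95 in wild-type mice in the mean of its probes). Phgdh was higher by 0.90 and 1.28 (0.92 in wild-type mice with normexp), and Shmt1, the cytosolic counterpart of Shmt2, by 0.77 and 1.05 (0.51 in wild-type mice with normexp). Sds, which breaks serine down, was not well above background.

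Among the transporters that carry D-amino acids, Slc36a1, a proton-coupled carrier, was lower in ileum as Dao was. At its brightest probe it was 9.37-fold lower in ileum in G181R mice and 10.4-fold lower in wild-type mice (log2 -3.23 and -3.38), and in the mean of its probes at -2.47 and -2.65. With normexp it was at -2.71 and -2.56. In contrast to the brighter Dao probe, Slc36a1 was higher in G181R mice, by 0.78 in jejunum and 0.93 in ileum. The dimmer Dao probe was higher as well, by 0.43 and 0.67. Slc6a14, a carrier of neutral and cationic amino acids, was not well above background in jejunum, and had signals of 720 in G181R ileum and 210 in wild-type ileum, 3.62-fold higher. It was at least 113-fold higher in ileum than in jejunum in G181R mice and at least 24.1-fold higher in wild-type mice. Slc1a5, a carrier of neutral amino acids, was higher in ileum by 1.59 in G181R mice and 1.97 in wild-type mice. Slc7a10, at signals of only 10.7 to 35.2, was at 1.58 and 1.28, which were 0.40 and 0.17 with normexp. Slc3a1 differed by at most 0.24 in any comparison.

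Of 8 receptor subunits that bind D-serine, 3 were measured in jejunum and 4 in ileum, and 1 was at least 2-fold different between genotypes. Of all measured genes, 1.51% were so in jejunum and 5.21% in ileum. Grin2a, a subunit of the NMDA receptor, had signals of 104 in G181R ileum and 444 in wild-type ileum (log2 -2.02), but stood at -0.79 in the mean of its probes. Between regions Grin2a was at 0.95 in G181R mice and 2.67 in wild-type mice, and the wild-type value was 0.70 in the mean of its probes. Of the neuron and glia markers, 5 of 6 measured were lower in G181R than in wild-type ileum (median -0.52), Stmn2 at -2.01 and Uchl1 at -1.41, and Stmn2 was at -0.24 in G181R mice and 2.25 in wild-type mice between regions. Their summed level was 2.36 in G181R ileum and 3.58 in wild-type ileum, and 2.27 and 2.41 in jejunum. Their part in the Grin2a difference was not tested. Of 4 proteins that bind serine racemase (Golga3, Pick1, Disc1 and Grip1), 3 were measured in jejunum, without Grip1, and 4 in ileum. Between genotypes 0 of these were 2-fold different, where 1.51% of all measured genes were so in jejunum and 5.21% in ileum. Golga3 was higher in G181R mice, by 0.45 in jejunum and 0.47 in ileum, and Disc1 lower, at -0.41 and -0.52.

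**Figure D4:**
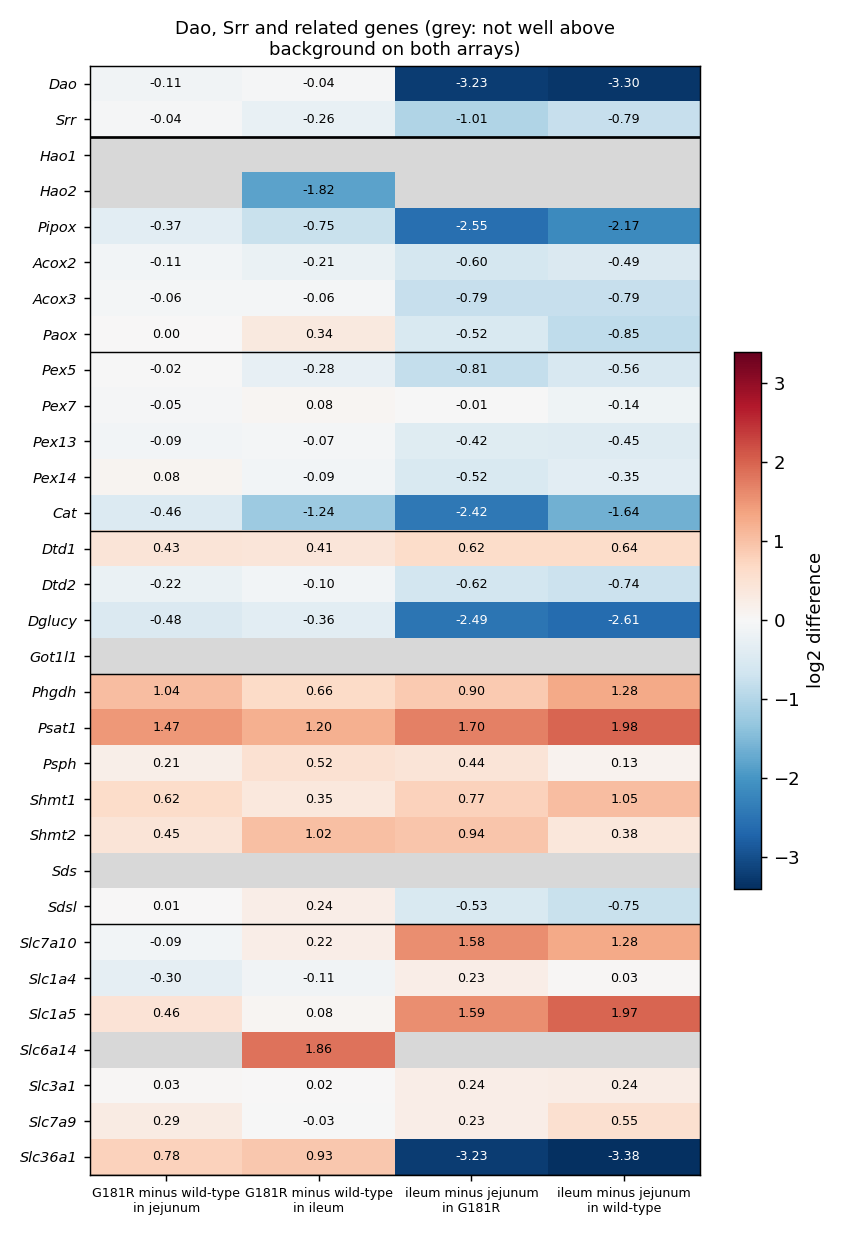
Log2 differences of the brightest probe of Dao, Srr and of genes of 5 related lists, in columns for the 4 comparisons, with colour and printed number for the difference and grey for genes not well above background on both arrays. Dao, Pipox, Cat, Dglucy and Slc36a1 share the dark blue of the regional columns, and Phgdh, Psat1, Shmt1 and Shmt2 are red in both genotype columns.

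The genes whose profile over the 4 arrays lay nearest to that of Dao, among 12677 named genes measured on all 4, were Arl14, Afm, Trpa1, Crebbp and Zfpm1, by Euclidean distance of the centred log2 levels (0.13 for Arl14 to 0.17 for Zfpm1). All 5 were lower in ileum, with log2 differences of -3.49 to -3.20 in wild-type mice, which follows from how they were chosen. Trpa1 and Afm were dim in wild-type ileum, at levels of -4.26 and -3.44. Crebbp rests on its brightest probe, since its other probes differed by -0.18 and 0.04. The other measured probe of Zfpm1 gave -3.35. Nearest to Srr were Cenpv, Nags, Pmaip1, Fam114a1 and Chst14 (0.02 to 0.05). The likeness rests on 4 arrays, which leave 3 values free once the profile is centred. By correlation in place of distance, 0 of the 5 genes were the same for Dao and for Srr.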

How the data were processed

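The deposited scanner files hold intensity values, made, per the file headers, by subtracting background within each array without scaling between arrays. The software was Agilent Feature Extraction 11.5.1.1, per the submitters' processing notes. The other values used are flags of 0 or 1 that, per the file headers, mark spots well above background, saturated spots and outliers. The deposited table holds log2 values: 95.8% of its 56605 probes equal the scanner log2 minus 1 constant per array within 0.01, while 2356, the brighter Dao probe among them, hold 1 repeated value per array. It served only as an alternative. The basis of that constant is not given in the sources used here. Column medians were -3.09, -3.09, -3.14 and -3.09 (G181R and wild-type jejunum, G181R and wild-type ileum).

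Spots of a probe were averaged without outliers, and the 75th percentile of non-control probes was subtracted. The brightest probe stood for its gene. Genes were compared where well above background on both arrays, and counted from 2-fold. Symbols came by accession from the GRCm38.p6 gene table for 32994 probes, and the array's name was kept for 23611. Probes printed 10 times (300) gave a median SD of 0.04 for a log2 difference.

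The members and lists were chosen with earlier results of these data known. Named were all member probes, the 5 nearest profiles of each member, and list genes from 2-fold or needed for a result. A gene of the lists is counted in its list but not reported here. Counting was tested on simulated data. Tools were limma 3.58.1 (R 4.3.3, normexp and quantile) and pandas 2.3.3. Alternatives were normexp (offset 50), other scalings, the deposited table, the mean of probes, no dim filter and 1.5-fold.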

Additional observations from a re-analysis of the deposited data

Results flagged for a closer look

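The Srr probe A_52_P172711 had a genotype difference of opposite sign in the 2 regions, 0.03 in jejunum and -0.24 in ileum, so that ileum minus jejunum was -0.27. The difference was not tested, since each group is 1 array, and it was within the scanner error of 0.30. With normexp the jejunum value was -0.01.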

How the results depend on the processing

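No paired analysis was possible because each group is 1 array. A difference is said to move when it changed by more than the scanner's error. Of 44 differences of Dao and Srr under the alternatives, 40 stayed within that error and 4 moved. The other scalings and the deposited table reuse the same scanner signals, so the 40 are not independent checks. In the mean of its probes Dao was at 0.16 in jejunum and 0.32 in ileum, G181R minus wild-type. With normexp Dao was at -2.69 in G181R mice and -2.78 in wild-type mice, ileum minus jejunum. Of 20 differences of the dimmer Dao probe 3 moved, all with normexp: 0.11 in ileum between genotypes, and -1.37 and -1.23 between regions in G181R and wild-type mice. Normexp adds 50 to every signal, and the ileum signals of this probe were 14.2 in G181R and 9.39 in wild-type mice. The cause of the moves was not tested. The brighter Dao probe has no value from the deposited table. The number of genes at least 2-fold different (323 in jejunum and 1125 in ileum between genotypes, 3465 and 3451 between regions in G181R and wild-type mice) was 93, 396, 1744 and 1801 with normexp, 2839, 3536, 6917 and 7032 with no filter on dim probes, and 1596, 3339, 7518 and 7485 at 1.5-fold. The share that was higher in G181R jejunum was 64.5% with normexp in place of 50.5%. With correlation, 0 of the 5 nearest genes stayed for Dao and 0 for Srr. Signals near background limit Ddo and the dimmer Dao probe in ileum.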
